A study of Mus musculus with 8 samples.

Results

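Hypoxia response genes encode the factor that drives the response to low oxygen and the enzymes that control it. They also include its targets, whose transcripts rise when the factor is stabilised. The 10 described here, all outside glycolysis and measured in the tongue epithelium of mice, are Hif1a, Egln1, Egln3, Car9, Car12, Vegfa, Adm, Ndrg1, Bnip3 and Ankrd37. They were chosen by symbol, and all 10 were among the 32285 gene rows of the 8 libraries. The mice carried a tamoxifen-dependent Cre under the Krt14 promoter (Krt14-CreERT), which is active in basal epithelial cells, and a reverse tetracycline activator behind a floxed stop (LSL-rtTA), with an inducible H2B-GFP reporter in every group according to the study's methods. Group N had no further transgene, group E had tetON_E6-E7, the oncogenes of a human papillomavirus, group Y had tetON_YAP1S127A, an always-active mutant of YAP1, the effector of the Hippo pathway, and group EY had both. All mice had received tamoxifen in the tongue and doxycycline in the chow, so the controls shared both agents, and cells were taken 15 days after induction. There were 2 single-cell libraries per group, named N1, N2 and so on, and N2 may be a pool, since more than 1 animal number stands in its title.

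Of 42550 deposited cells 25199 passed the study's cell limits. Epithelial cells were those in which 5 keratins (Krt5, Krt14, Krt15, Krt13 and Krt6a) made up at least 0.5% of the unique molecular identifiers (UMIs, 1 per captured transcript) and which held no Ptprc, the gene of the leukocyte antigen CD45. They numbered 3447, 415, 4055, 553, 1289, 1001, 170 and 2027 in N1, N2, E1, E2, Y1, Y2, EY1 and EY2. Myeloid cells held at least 5 UMIs of Lyz2, the lysozyme of macrophages and neutrophils, and under 0.5% keratins, and numbered 101, 269, 194, 141, 1123, 306, 873 and 395. All 11 keratinocyte markers were detected in the epithelial sums, which held them at 25358 to 29416 CPM (UMIs scaled to a common total per library) in every library, and all 8 myeloid markers in the myeloid sums, at 8039 to 15383 CPM. The 5 keratins of the gate are among the former and Lyz2 is among the latter, so these sums were partly fixed by the choice of cells. The 7 leukocyte markers summed to 10.2 to 18.3 CPM in the epithelial cells of N and E, and to 71.2, 20.8, 150 and 38.2 in Y1, Y2, EY1 and EY2. Ptprc was at 0 there by the choice of cells. Granulocyte markers in the epithelial sums were at 4.62 to 38.2 CPM in N and E and at 129, 41.8, 2213 and 620 in the libraries with YAP, fibroblast markers at 725 to 1226 and at 805, 338, 254 and 28.3, and immediate early genes at 5824 to 9917 and at 6749, 4056, 4111 and 3237. The part of these in the results was not tested beyond the values given beside each. The myeloid cells differed in kind between groups: 0 to 22.7% of them in N and E, 17.6 and 2.94% in Y and 71.7 and 51.1% in EY held S100a8 and S100a9, which mark granulocytes, at 0.5% of UMIs or more. Between libraries, 82 of 25117 barcodes of kept cells were shared.

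Hypoxia-inducible factor 1 is a pair of proteins, of which the alpha subunit (Hif1a) is destroyed while oxygen is present. The prolyl hydroxylases encoded by Egln1 and Egln3 mark it for that destruction, and both genes are themselves targets of the factor, so that a response limits itself. Among the other targets, Car9 and Car12 are carbonic anhydrases of the cell surface that handle acid, Vegfa and Adm are secreted signals to blood vessels, Bnip3 acts in the removal of mitochondria, Ndrg1 is a stress-induced gene of differentiating epithelium, and Ankrd37 is a small ankyrin repeat gene. Levels below are CPM of the summed cells, adjusted between libraries by the TMM method unless called unscaled. They come from the 3' end of transcripts, so a level can be compared between libraries and not between genes.

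The factor binds a short core, ACGTG or GCGTG, and the promoters of the members were read for it (RefSeq, GRCm38.p6, 250 bases before to 50 after the start). Of the 10 members 9 had an entry, and 8 of these 9 held the core on 1 strand or the other in at least 1 entry. Counted by entry and not by gene, 14380 of 32851 promoters of all genes held it (43.8%). A palindromic CACGTG counts once on each strand. The 4 shown are printed because they set the member with the largest response in epithelial cells (Egln3) beside others that passed the test there (Bnip3, Car9) and its paralogue, which did not (Egln1). Capitals mark the core as it lies on the printed strand, where a core of the other strand reads CACGT or CACGC. Positions are given on GRCm38, for Egln3 chr12:54203825-54204124 (minus strand, at the start of a gene that runs over chr12:54178981-54203860), for Bnip3 chr7:138909457-138909756 (minus strand), for Car9 chr4:43506776-43507075 (plus strand) and for Egln1 chr8:124949205-124949504 (minus strand).
Egln3: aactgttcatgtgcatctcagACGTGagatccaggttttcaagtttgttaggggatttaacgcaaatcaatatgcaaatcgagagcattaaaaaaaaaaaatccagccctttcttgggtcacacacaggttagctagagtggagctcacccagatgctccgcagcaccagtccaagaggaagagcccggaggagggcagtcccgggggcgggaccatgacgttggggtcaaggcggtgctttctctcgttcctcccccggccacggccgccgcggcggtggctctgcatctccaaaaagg
Bnip3: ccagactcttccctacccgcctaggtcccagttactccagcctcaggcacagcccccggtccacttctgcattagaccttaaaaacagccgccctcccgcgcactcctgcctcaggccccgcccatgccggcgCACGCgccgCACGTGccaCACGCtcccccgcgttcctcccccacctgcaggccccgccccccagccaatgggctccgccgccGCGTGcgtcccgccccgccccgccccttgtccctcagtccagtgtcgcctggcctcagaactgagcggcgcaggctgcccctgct
Car9: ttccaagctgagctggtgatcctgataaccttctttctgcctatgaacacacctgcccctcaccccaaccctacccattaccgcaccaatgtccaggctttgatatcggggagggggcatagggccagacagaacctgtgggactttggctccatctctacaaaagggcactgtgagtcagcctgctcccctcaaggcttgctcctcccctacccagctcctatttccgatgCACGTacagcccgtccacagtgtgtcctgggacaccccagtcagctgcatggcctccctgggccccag
Egln1: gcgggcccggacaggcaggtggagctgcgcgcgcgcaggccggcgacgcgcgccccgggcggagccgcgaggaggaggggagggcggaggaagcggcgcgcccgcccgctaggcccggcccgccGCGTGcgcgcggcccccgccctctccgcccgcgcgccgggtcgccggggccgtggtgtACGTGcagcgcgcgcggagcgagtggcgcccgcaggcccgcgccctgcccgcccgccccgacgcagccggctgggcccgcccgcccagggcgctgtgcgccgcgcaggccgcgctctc
Egln3 held 1 core, 229 bases before the start, Car9 held 1, 18 bases before it, Egln1 held 2 and Bnip3 held 5. Car12 held none. Vegfa has 2 entries, and only the one farther into the gene held the core. GGAATG, the core read by the TEAD partners of YAP, was found on neither strand of any of the 9, against 4817 of all 32851 promoters (14.7%). A match describes letters and is not evidence of binding.

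The first question was whether the members differed in epithelial cells between libraries with and without the YAP transgene. Yap1 itself checked the labels: it was at 32.8 to 47.8 CPM (unscaled) in N and E and at 211, 452, 216 and 166 in Y1, Y2, EY1 and EY2, so the 4 with the transgene lay above the other 4. How far transgene transcripts count towards mouse Yap1 was not analysed here. With the transgene, 5 members were higher in an edgeR test of both transgenes as additive terms over all 8 libraries (Egln3, Bnip3, Ndrg1, Vegfa and Car9, Benjamini-Hochberg adjusted p under 0.05), and none was lower. Over all 13555 genes tested, 5.26% were higher and 3.72% lower. In 6 members all 4 libraries with the transgene lay above all 4 without it (the 5 named less Car9, with Adm and Ankrd37), which held for 9.41% of all genes.

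Egln3 moved most. It was at 9.78 and 7.74 CPM in N, 6.53 and 5.34 in E, 95.5 and 296 in Y, and 119 and 108 in EY. Y2 stood highest and Y1 lowest of the 4 with YAP, with both EY libraries between them, and all 4 lay far above the highest of the others. The mean was 155 ± 95 (SD, n = 4) with the transgene and 7.35 ± 1.89 (n = 4) without it, a log2 fold change of 4.35 (SE 0.35, adjusted p = 0.00173). The call held in all 16 alternatives tried, at 3.93 to 4.61. Its paralogue Egln1 overlapped between the groups. That hydroxylase, the main one at normal oxygen, stood at 76.6 to 87.5 CPM in E, at 96.0 and 83.9 in N, and at 80.4 to 101 in the libraries with YAP, with a fold change of 0.11 (SE 0.12, adjusted p = 0.523). Hif1a was at 125, 127, 149 and 117 CPM in N and E and at 95.7, 116, 129 and 192 in Y and EY. These ranges overlapped, and the fold change was 0.01 (SE 0.18, adjusted p = 0.965), so no difference in the transcript of the factor was detected beside the difference in its target. Its sign turned in 3 of the alternatives.

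**Figure D1:**
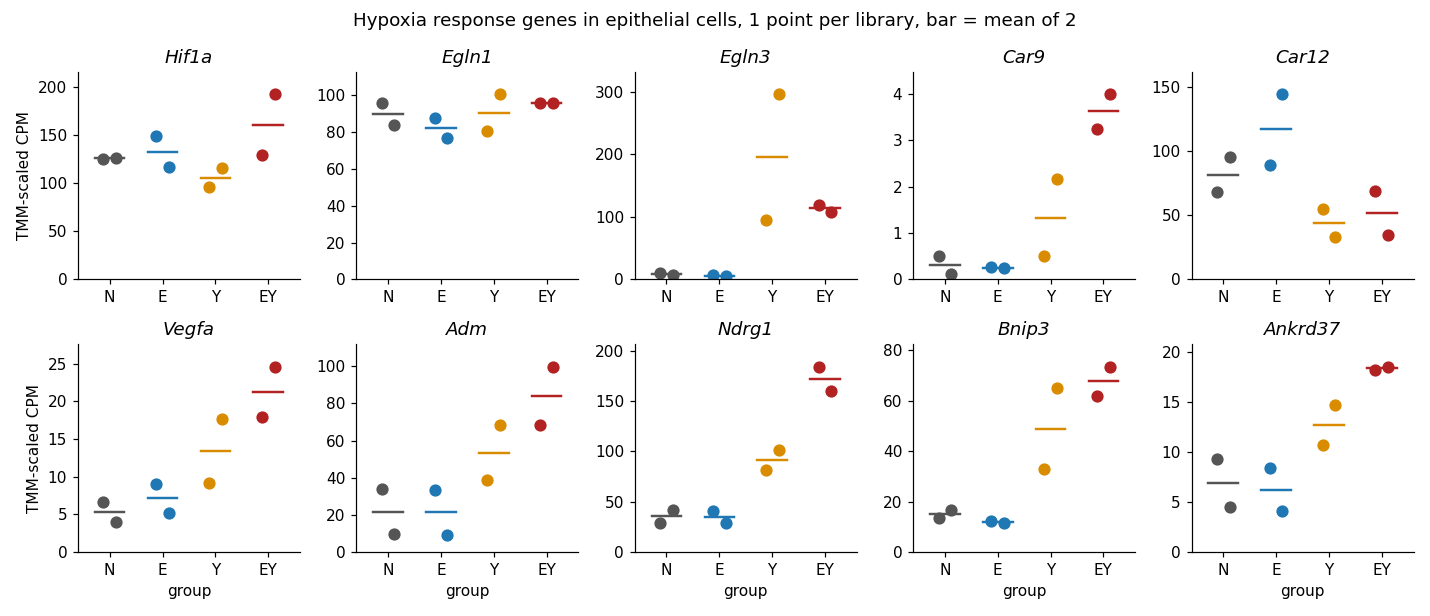
Levels of the 10 members in epithelial cells (TMM-scaled CPM, linear axes from 0), 1 point per library in groups N, E, Y and EY, with a bar at the mean of the 2 libraries. Egln3 lay at 5.34 to 9.78 in N and E and at 95.5 to 296 in Y and EY, while Egln1 and Hif1a overlapped between groups.

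Of the effectors, Bnip3 was at 13.3 and 16.4 CPM in N, 12.4 and 11.5 in E, 32.9 and 64.9 in Y and 61.8 and 73.6 in EY. All 4 libraries with YAP lay above the others, with a log2 fold change of 2.12 (SE 0.26, adjusted p = 0.00398). Ndrg1 was at 28.8 and 42.1 CPM in N, 40.7 and 28.7 in E, 82.0 and 101 in Y and 184 and 160.0 in EY. Here the order was N and E, then Y, then EY, with no overlap between these 3 sets, and the YAP transgene effect was 1.84 (SE 0.24, adjusted p = 0.0051). The test of the interaction between the transgenes did not pass for Ndrg1 (0.92, SE 0.35, adjusted p = 0.393), so the step from Y to EY is given as values only. Bnip3 and Ndrg1 were called in all 16 alternatives.

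Among the secreted signals, Vegfa was at 6.66 and 3.93 CPM in N, 9.05 and 5.18 in E, 9.16 and 17.7 in Y and 17.9 and 24.6 in EY. Y1 lay barely above E1, and the fold change was 1.44 (SE 0.29, adjusted p = 0.0253). The call was lost without N2 (adjusted p = 0.0562), E1 (0.0590), E2 (0.0683), Y2 (0.0860), EY1 (0.0548) or EY2 (0.0635). At its highest, the part that RNA of other cells could make up was larger for Vegfa than for the other members. Lyz2 in epithelial cells was 0.0504 to 3.39% of its level in the myeloid cells of the same library, and myeloid RNA at that ratio would hold 29.2% of the Vegfa measured in epithelial cells of EY1, 14.7% in Y1 and 0.740 to 6.33% in the other 6. The same figure reached at most 9.04% for Hif1a, 7.50% for Bnip3, 7.46% for Ankrd37 and 5.08% for Car9. For Ndrg1 and Egln3 it reached at most 2.96 and 1.37%. Lyz2 also chose the myeloid cells, which raises its level there, so these figures may be too low. In epithelial cells with no UMI of Tyrobp, Lyz2, Cd3e, Cd52 and Srgn, of which 57 remained in EY1 and 582 in Y1, the same 5 members passed for the YAP transgene effect. Adm, which encodes the vasodilator adrenomedullin, was at 33.9 and 9.53 CPM in N, 33.5 and 9.09 in E, 38.9 and 68.2 in Y and 68.3 and 99.8 in EY. N1 and E1 stood well above N2 and E2, within groups of the same genotype, and the fold change of 1.61 (SE 0.49) did not pass (adjusted p = 0.0706).

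The carbonic anhydrases went apart. Car9 was scarce, with 26 and 1 UMIs in all epithelial cells of the N libraries, 15 and 3 in E, 12 and 43 in Y, and 8 and 141 in EY. As levels these were 0.514, 0.119, 0.261 and 0.239 CPM against 0.509, 2.16, 3.25 and 4.0, so that Y1 did not exceed N1 while the other 3 did. The fold change of 2.76 (SE 0.66) passed (adjusted p = 0.0390), but not without N2 (adjusted p = 0.0695), E1 (0.128), E2 (0.113), Y2 (0.121), EY1 (0.0755) or EY2 (0.0998). Car12 lay in the other direction, at 68.2 and 95.1 CPM in N, 89.4 and 144 in E, 55.0 and 33.4 in Y and 69.1 and 34.7 in EY. EY1 overlapped with N1, and the fold change of −1.04 (SE 0.28) narrowly missed the threshold (adjusted p = 0.0513). Ankrd37 missed it as narrowly in the opposite direction. It was at 9.28, 4.53, 8.43 and 4.06 CPM in N and E and at 10.7, 14.7, 18.3 and 18.6 in Y and EY, without overlap (1.18, SE 0.31, adjusted p = 0.0510).

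**Figure D2:**
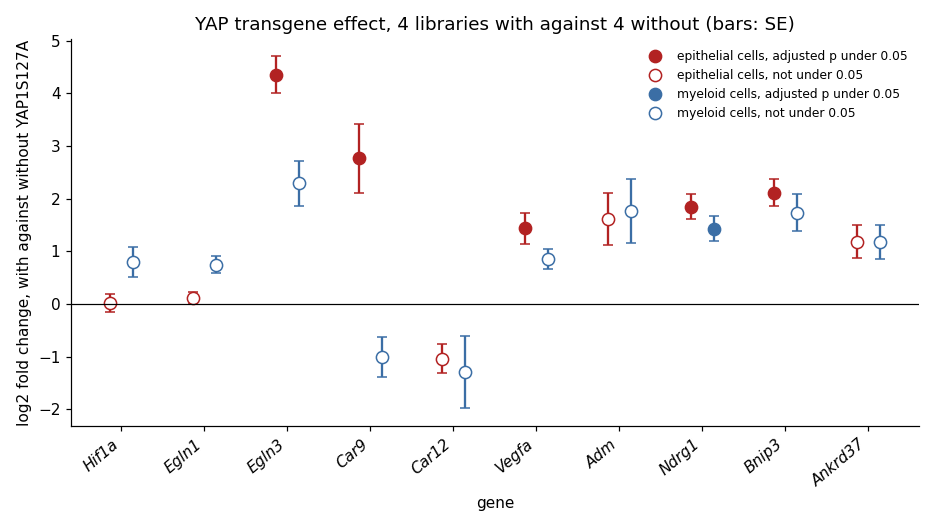
Log2 fold change of each member with against without YAP1S127A (4 libraries against 4, bars are SE) in epithelial and in myeloid cells. Filled points passed an adjusted p of 0.05, which Egln3 (4.35), Car9 (2.76), Bnip3 (2.12), Ndrg1 (1.84) and Vegfa (1.44) did in epithelial cells and Ndrg1 (1.43) in myeloid cells.

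E6-E7 was then compared in the same way. None of the 10 members passed for the E6-E7 effect in epithelial cells, where 0.406% of all genes did, and none passed for E against N (0.243% of all genes). The fold changes of the E6-E7 effect ran from −0.68 (SE 0.31) for Egln3 to 0.61 (SE 0.64) for Car9, and in both contrasts no member had an unadjusted p under 0.05, nor was one called by the DESeq2 Wald test. Mcm2, a replication gene that rises in cells expressing E7, was at 40.2 and 26.4 CPM (unscaled) in E against 12.4 and 5.49 in N. It was also at 27.2 in Y2, which carries no E6-E7, so it does not separate the labels by itself, and E6-E7 transcripts were not analysed here. Against N alone, the Y libraries passed for Egln3 (4.46, SE 0.52, adjusted p = 0.0370), with 0.384% of all genes higher. This call was lost without N1 (adjusted p = 0.285), N2 (0.189), E1 (0.0524), E2 (0.0609) or EY1 (0.0557). EY against N passed for the same 5 members as the YAP transgene effect, with which it shares the N and EY libraries: Egln3 at 3.67 (SE 0.51), Car9 at 3.23 (SE 0.79), Ndrg1 at 2.29 (SE 0.26), Bnip3 at 2.21 (SE 0.32) and Vegfa at 1.99 (SE 0.44), with adjusted p from 0.0076 to 0.0334 and 9.31% of all genes higher. Without N1 or without EY2 none of the 5 passed (adjusted p 0.0537 to 0.196), without N2 only Ndrg1 did, and Car9 also missed without E1 (0.0523) or E2 (0.0534). The interaction passed for no member and for 0% of all genes, where 1562 of 13555 had an unadjusted p under 0.05 and the DESeq2 Wald test called 89.

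The rest of the pathway was read from lists. Of the 13 tested genes of oxygen sensing, which include the 3 members of that machinery, Egln3 alone was called for the YAP transgene effect (median log2 fold change 0.11, against −0.03 over all genes). Of 34 other targets of the factor, 10 were higher and 4 lower (median 0.39). Edn1, which encodes the vasoconstrictor endothelin, was at 1.43 to 6.18 CPM in N and E and at 32.8 to 109 with YAP (4.01, SE 0.43, adjusted p = 0.00311), and Slc2a3, a glucose transporter, was at 0.238 to 0.714 CPM without and at 1.40, 3.77, 11.4 and 30.9 with YAP (3.87, SE 0.66, adjusted p = 0.0134). The Slc2a3 call was lost in 2 of 16 alternatives. Other targets of the list fell (Rora, Stc1, Ccng2 and Fam162a, named after their values were seen). Of 16 glycolysis genes 11 were higher and none lower (median 0.93), led by the lactate exporter Slc16a3, at 1.44 to 3.97 CPM in N and E and 17.9 to 124 with YAP (4.63, SE 0.49, adjusted p = 0.00301). Among 8 receptors and partners of the secreted signals, Flt1 and Ramp3 were higher (median 0.61), both at low levels. Flt1 was at 0.159 to 0.238 CPM in N and E and at 1.27, 7.85, 0.813 and 2.01 in Y1, Y2, EY1 and EY2. Ramp3 was at 0.731 to 0.975 CPM without and at 1.51 to 3.25 with YAP. Immediate early genes, which respond to cell dissociation, had 1 of 10 lower, Egr1, and none higher (median −0.78). For EY against N the counts were 11 higher and 4 lower of the 34 targets, among them Slc2a3 (5.58, SE 0.71) and Hmox1 (3.25, SE 0.38), which degrades haem, both named by size and level, and 13 higher of the 16 glycolysis genes, led by Slc16a3 (5.69, SE 0.73). The same contrast had 1 higher (Egln3) and 1 lower (Hif1an) in oxygen sensing.

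Among the genes whose epithelial levels were most like those of Egln3 over the 8 libraries, by Pearson r of log2(CPM + 1) among 5104 genes, were Amotl2 (0.991), Pdlim2 (0.991), Agps (0.990) and Tead1 (0.986). Amotl2 was at 5.6 to 9.22 CPM in N and E and at 50.1, 121, 48.3 and 61.9 in Y1, Y2, EY1 and EY2. Like Egln3 it peaked in Y2. The same r was 0.953 for Bnip3, 0.882 for Ndrg1, 0.843 for Ankrd37, 0.835 for Vegfa, 0.808 for Car9, 0.804 for Adm, 0.568 for Egln1, −0.03 for Hif1a and −0.854 for Car12. These describe 8 libraries that fall into 2 sets, with and without the YAP transgene, and carry no test.

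At the level of single cells, each cell was thinned to 2000 UMIs and the cells with at least 1 UMI of a member were counted. Egln3 was found in 12.1% of epithelial cells of Y1 (95% exact Clopper-Pearson interval 10.4 to 14%), 32.4% of Y2 (29.5 to 35.4%), 15.4% of EY1 (10.3 to 21.7%) and 15.4% of EY2 (13.8 to 17.0%). In N1, N2, E1 and E2 the share was 1.92, 1.20, 1.26 and 0.542%, against 1.57, 1.44, 2.28 and 2.80% of the cells of a T-cell gate (Cd3e and Ptprc present, Lyz2 absent) of the same libraries. Only N1 lay above its T-cell gate, with overlapping intervals, so at this thinned depth no expression is read from these shares, while the summed levels of Egln3 differed between layers of the epithelium in N1, E1 and E2 (given with the layers). That gate kept cells with keratins at 0.5% of UMIs or more, so it is not a clean floor. They were 24 of 331, 4 of 625, 19 of 220 and 4 of 537 cells in N1, N2, E1 and E2. The share of Egln3 in the gate was 1.73, 5.96, 2.37 and 3.27% in Y1, Y2, EY1 and EY2. Median depths before thinning were 12575 to 23570 UMIs in epithelial cells and 3114 to 7885 in the T-cell gate. Without thinning, Egln3 was found in 35.8, 69.3, 40 and 52.3% of epithelial cells of Y1, Y2, EY1 and EY2 and in 6.34 to 11% of those of N and E, where the T-cell gate, at its lower depth, had 3.84 to 9.31%. Hif1a was found in 15.8 to 29.1% and Egln1 in 13 to 17% of thinned epithelial cells of all 8 libraries. Car9 stayed under 1% in every library, with no cell of 553 in E2, 1288 in Y1 and 169 in EY1, so that 3 counts of the total would allow shares of up to 0.542, 0.233 and 1.78%. These limits cover cells with a UMI after thinning and not cells that express Car9, which before thinning had 3, 12 and 8 UMIs in these libraries. The intervals cover counting error only.

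Ndrg1 and Bnip3 were found more often in epithelial cells with an Egln3 UMI than in those without. Ndrg1 had a UMI in 32.1% of Egln3-positive and 6.45% of Egln3-negative epithelial cells of Y1, in 25.9 and 7.83% in Y2, in 42.3 and 10.5% in EY1 and in 39.1 and 15.2% in EY2. The intervals of the 2 shares did not overlap in any of the 4. For Bnip3 the shares were 13.5 and 2.03% in Y1, then 17.9 and 5.76% (Y2), 23.1 and 11.9% (EY1) and 20.8 and 8.63% (EY2), and in EY1, with 26 positive cells, the intervals overlapped. Adm, Vegfa, Ankrd37 and Egln1 also had the higher share in Egln3-positive cells of all 4 libraries. Adm was at 11.5 and 3.62% in Y1 and 23.1 and 8.45% in EY2, and its intervals overlapped in Y2 and EY1. Those of Vegfa overlapped in Y2 and EY1 as well, those of Ankrd37 in Y2 and EY2, and those of Egln1 in all 4. Car12 differed in no common direction. Car9 was at 0.926 and 0.148% in Y2 and at 2.88 and 0.350% in EY2, and was found in no cell of Y1 and EY1. Hif1a was at 22.4 and 14.8% (Y1), 23.5 and 18.6% (Y2), 19.2 and 19.6% (EY1) and 30.4 and 28.9% (EY2). These are shares of cells within 1 library at equal depth and carry no test between conditions. Cells were not split by layer here, although Egln3 was higher in suprabasal cells (given with the layers), and the part of the layers was not tested. In myeloid cells, Egln3 was found in 0.990 to 1.49% of thinned cells in N and E, 5.08 and 3.27% in Y and 7.90 and 8.86% in EY. The share of Y2 lay below the 5.96% of its T-cell gate, so no expression is read from it. At least 3 of the 10 members were found together in 1.45 to 3.16% of thinned epithelial cells in N and E, 5.05 and 10.4% in Y and 11.8 and 13% in EY. This share rises with the share of each member alone, and what those shares would give was not computed.

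**Figure D3:**
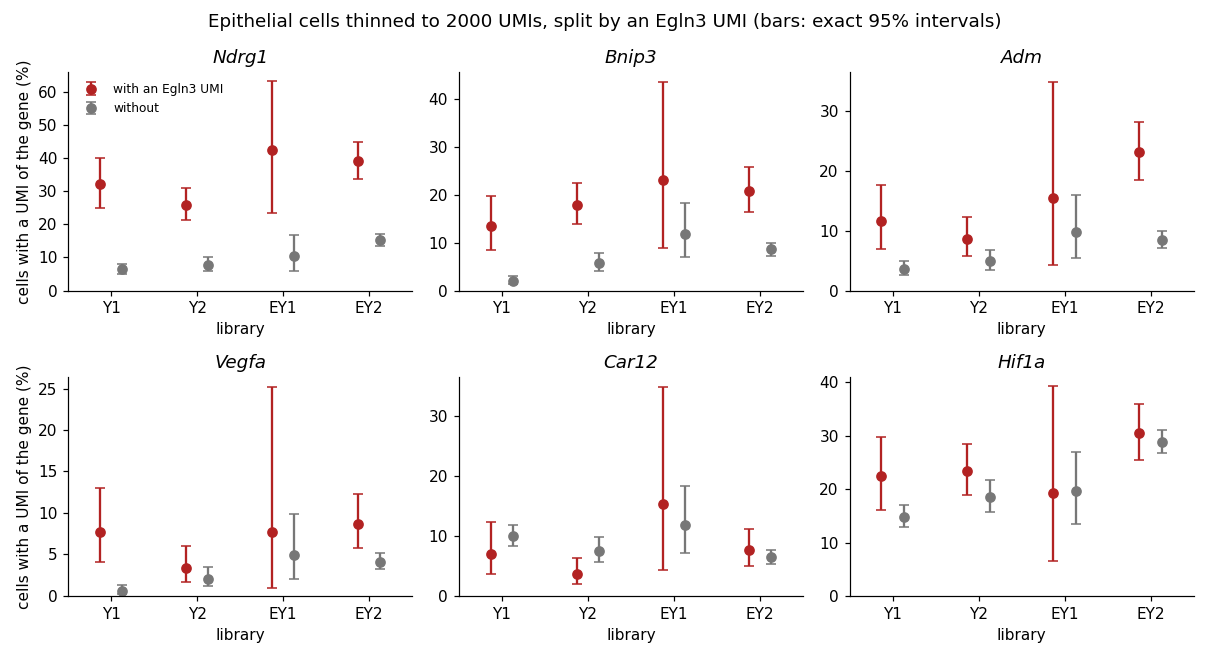
Share of epithelial cells with a UMI of 6 other members, in cells with and without an Egln3 UMI, in the 4 libraries with YAP1S127A after thinning to 2000 UMIs (bars are exact 95% intervals). Ndrg1 was found in 25.9 to 42.3% of Egln3-positive cells and in 6.45 to 15.2% of the rest.

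The layers of the epithelium were compared within 7 libraries, with the library as a block. Suprabasal cells had more UMIs of Krt4 and Krt13, keratins of differentiating cells, than of Krt5, Krt14 and Krt15, and basal cells the reverse. EY1 had 16 suprabasal cells and was not used, and Car9 did not pass the filter on low counts. N2 had 31 suprabasal cells with 387560 UMIs and E2 had 51 with 781074, so low levels there rest on few UMIs. Egln3 was higher in suprabasal cells of 6 of 7 libraries (1.17, SE 0.16, adjusted p = 0.000162). It was at 19.8, 5.96, 14.9 and 19.4 CPM there in N1, N2, E1 and E2 against 7.74, 7.66, 5.0 and 4.38 in basal cells, and at 210, 450 and 166 against 78.6, 260 and 102 in Y1, Y2 and EY2. In both layers, every library with YAP lay above every library without it. Ankrd37 was higher in 6 of 7 libraries (0.69, SE 0.16, adjusted p = 0.00675) and Vegfa in 5 of 7 (0.52, SE 0.14, adjusted p = 0.0142), where 15% of all genes were higher. The Vegfa call was lost without E1 (adjusted p = 0.0559), Y1 (0.0583) or Y2 (0.0614). Hif1a was lower in suprabasal cells of all 7 (−0.25, SE 0.07, adjusted p = 0.0179), where 17.6% of all genes were lower, and without E1 its adjusted p was 0.0530. Egln1, Car12, Adm, Ndrg1 and Bnip3 did not pass. From the lists, P4ha1, a collagen prolyl hydroxylase, was lower in suprabasal cells (−1.92, SE 0.16, adjusted p = 7.1e-06), and Egln2, the third prolyl hydroxylase, was higher (0.54, SE 0.10, adjusted p = 0.00173).

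The same members were then followed in Lyz2-positive myeloid cells, a class in which the Krt14 promoter is not known to be active. Yap1 was at 0.987 to 1.63 CPM (unscaled) in the myeloid cells of N and E and at 3.76, 3.48, 4.59 and 9.57 in Y1, Y2, EY1 and EY2. Krt14 there was 0.699 to 5.49% of its level in the epithelial cells of the same library. It is among the keratins that chose both classes of cells, so figures at this ratio may be too low. Only Ndrg1 passed for the YAP transgene effect (1.43, SE 0.24, adjusted p = 0.0326), with 0.69% of all 10140 genes higher. It was at 75.6 and 76.6 CPM in N, 63.6 and 47.2 in E, 139 and 140.5 in Y and 221 and 219 in EY. The groups with YAP stood apart, and Y and EY from each other. The TMM factors of the myeloid sums were 1.10 to 1.13 in N and E and 1.03 and 1.08 in Y. They were 0.735 and 0.775 in EY, so scaling raised the levels of EY and lowered the others. Unscaled, the step in Ndrg1 from Y (143 and 151 CPM) to EY (162 and 169) was smaller. The call was lost without N1 (adjusted p = 0.0738), E1 (0.130), E2 (0.0869), Y1 (0.0913), EY1 (0.0975) or EY2 (0.0741), and with at least 20 Lyz2 UMIs per cell (0.103). In 6 members (Egln1, Egln3, Vegfa, Adm, Ndrg1 and Bnip3) the scaled levels of all 4 libraries with YAP lay above the 4 without it. This held for 5.45% of all genes, and 4 of the 5 uncalled among these members missed the threshold narrowly. Unscaled, Vegfa was at 154.5 and 149.5 CPM in EY1 and EY2 against 159.9 in E2. Adm was at 1.96 in EY1 against 2.31 in N1, so both overlapped without scaling. Egln3 was at 4.14, 7.42, 3.98 and 9.18 CPM in N and E and at 23.9, 10.6, 66.1 and 49.0 in Y and EY (2.29, SE 0.43, adjusted p = 0.0503), with Y2 just above E2. Epithelial RNA at the ratio of Krt14 would hold 26.2% of the myeloid Egln3 of Y2, 14.9% in EY2, 7.81% in Y1 and 3.45% in EY1. Bnip3 was at 21.7, 50.2, 35.1 and 88.8 CPM against 172, 95.5, 187 and 201 (1.73, SE 0.35, adjusted p = 0.0548). Egln1 was at 35.1 to 48.0 CPM against 62.3 to 82.0 (0.74, SE 0.16, adjusted p = 0.0574), and Vegfa at 115 to 142 against 194 to 305 (0.85, SE 0.19, adjusted p = 0.0595). In Vegfa the highest library was Y1, and at scaled levels both EY libraries lay between Y1 and the controls. Adm, at 2 to 47 UMIs per library, was too scarce in myeloid cells to read further. Without Y2 as many as 7 members passed, and the DESeq2 Wald test called 6.

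**Figure D4:**
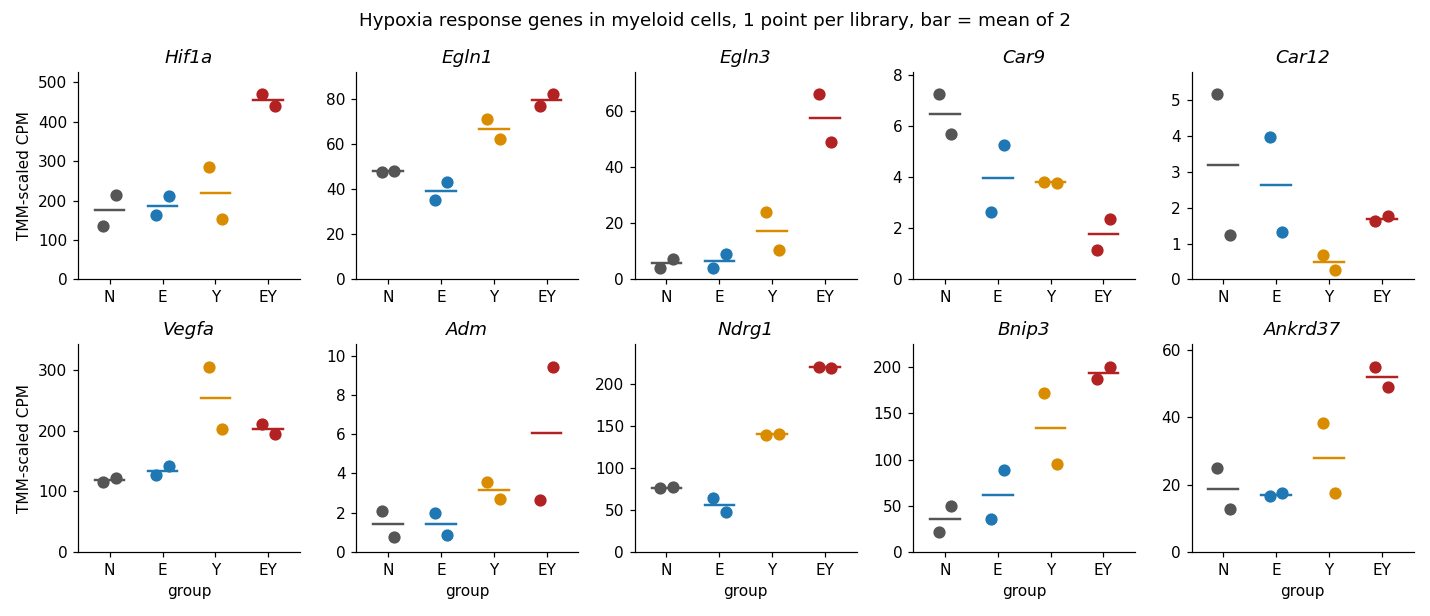
Levels of the 10 members in Lyz2-positive myeloid cells (TMM-scaled CPM, linear axes from 0), 1 point per library in groups N, E, Y and EY, with a bar at the mean of the 2 libraries. Ndrg1 lay at 47.2 to 76.6 in N and E and at 139 to 221 in Y and EY, and Vegfa was highest in Y1 at 305.

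EY against N passed for 5 members in myeloid cells, with 5.96% of all genes higher: Egln3 (3.16, SE 0.50, adjusted p = 0.0145), Bnip3 (2.35, SE 0.52, adjusted p = 0.0295), Ndrg1 (1.53, SE 0.20, adjusted p = 0.0133), Hif1a (1.37, SE 0.34, adjusted p = 0.0417) and Egln1 (0.73, SE 0.19, adjusted p = 0.0489). Hif1a was at 137 and 213 CPM in N, 164 and 211 in E, 284 and 152 in Y and 470.3 and 441 in EY. The EY libraries stood alone, and Y2 lay among the controls. These levels carry the TMM factors given above, which raised EY. Unscaled, Hif1a was at 345 and 340 CPM in EY against 152 and 234 in N. Egln1 was at 56.4 and 63.3 against 53.1 and 52.6, so its call rests largely on the scaling. Without N1, N2 or EY1 none of the 5 passed, and without E1 or E2 the calls of Hif1a and Egln1 were lost (adjusted p 0.0642 to 0.0714). Without EY2 only Egln3 and Ndrg1 passed, and without Y1 or Y2 the call of Egln1 was lost (0.0621 and 0.0632). The share of the S100a8 and S100a9 gate moved with these values, at 71.7 and 51.1% of the myeloid cells in EY against 0 and 3.35% in N. In myeloid cells outside the S100a8 and S100a9 gate, Hif1a was at 351 and 347 CPM (unscaled) in EY against 152 and 234 in N (1.01 in the fit, adjusted p = 0.115), Ndrg1 at 258 and 209 against 84.3 and 84.7, Egln3 at 40.5 and 38.9 against 4.62 and 6.94, and Bnip3 at 210.0 and 212 against 24.3 and 52.2. Within the gate, again unscaled, Hif1a was at 335 to 359 CPM in Y1, EY1 and EY2, the libraries with the most such cells. Ndrg1 and Bnip3 were lower there than outside the gate in EY, at 119 and 138 CPM and at 105 and 112. C1q-high cells, at 44.0 to 71.2% of the myeloid cells of N, E and Y, were at 10.8 and 29.6% in EY, and the part of cell makeup in the calls was not tested beyond these values. No member passed for the E6-E7 effect in myeloid cells, where 0.00986% of all genes did (1 gene, and 1559 with an unadjusted p under 0.05, among them Egln3 and Car9). The interaction passed for no member and for 0% of all genes, with 1254 of 10140 at an unadjusted p under 0.05 and 167 called by the DESeq2 Wald test.

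Of the lists, myeloid cells of EY against N had 10 of 16 glycolysis genes higher and none lower (median 1.16, against −0.03 over all genes) and 8 of 26 other targets higher and none lower (median 0.78). By the same rule of size and level, the genes named were Slc2a3 (4.69, SE 1.18, adjusted p = 0.0436), at 1.04 and 2.23 CPM in N and 66.2 and 33.0 in EY but also 106 in E1, and Nos2, the inducible nitric oxide synthase, at 31.1 and 18.8 CPM in N and 711 and 487 in EY (4.65, SE 0.93, adjusted p = 0.0241). Ramp1, which pairs with the calcitonin receptor-like receptor to form the CGRP receptor, fell from 69.4 and 69.0 to 1.97 and 2.95 CPM (−4.95, SE 0.69, adjusted p = 0.0133). Slc2a1, the main glucose transporter, was the pathway gene that passed for the YAP transgene effect (1.45, SE 0.27, adjusted p = 0.0459), and the call was lost in 9 of 16 alternatives.

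Last, the 2 classes were compared within the same 8 libraries. Of the 10 members 8 differed between them, where 37.9% of all 12000 genes were higher and 36.2% lower in epithelial cells. Car12 was higher in epithelial cells, at 29.8 to 129 CPM against 0.302 to 5.58 in myeloid cells (5.22, SE 0.30, adjusted p = 3.39e-08), and so was Adm, at 8.13 to 88.7 against 0.830 to 10.4 (3.6, SE 0.20, adjusted p = 2.47e-08). Vegfa was higher in myeloid cells, at 3.48 to 21.9 CPM in epithelial and 124 to 363 in myeloid cells (−4.41, SE 0.27, adjusted p = 4.33e-08). Bnip3 (−1.95, SE 0.25), Ankrd37 (−1.72, SE 0.20), Hif1a (−1.20, SE 0.21) and Ndrg1 (−1.03, SE 0.12) were lower in epithelial cells in 8 of 8 libraries. Car9 was lower in 6 of 8 (−2.43, SE 0.72, adjusted p = 0.00941). Egln1 (0.32, SE 0.15) and Egln3 (0.95, SE 0.50) did not pass, and Egln3 was higher in epithelial cells in 6 libraries and lower in 2. The 3 pathway genes named by the rule, Nos2 (−9.04), Nrp1 (−8.26) and Cxcr4 (−8.16), were all higher in myeloid cells. In the signal of Car12 and Adm in myeloid cells, epithelial RNA at the ratio of Krt14 would hold 29.0 to 157% and 6.67 to 71.5% of what was measured.

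Whether the YAP transgene effect itself differed between the classes was asked in 1 model with the library as a block, a test added after the values were seen. It passed for 1 member, Car9 (3.49 on the log2 scale, SE 0.79, adjusted p = 0.0371), and for 4.29% of all 12000 genes. The effect of 2.76 in epithelial cells stood against −1.0 (SE 0.38) in myeloid cells, where Car9 was at 7.25, 5.69, 2.65 and 5.25 CPM in N and E and at 3.80, 3.79, 1.16 and 2.36 in Y and EY, from 4 to 50 UMIs per library. The call was lost without N2 (adjusted p = 0.0686), E1 (0.0999), E2 (0.120), Y2 (0.0666), EY1 (0.0913) or EY2 (0.0910), in epithelial cells free of those leukocyte transcripts (0.0502) and with at least 20 Lyz2 UMIs (0.0787). For Egln3 the difference was 1.90 (SE 0.70, adjusted p = 0.147), for Hif1a −0.85 (SE 0.33, adjusted p = 0.163) and for Egln1 −0.69 (SE 0.21, adjusted p = 0.0921). For these, a difference between classes was not shown.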

How the data were processed

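Single viable cells of mouse tongue epithelium were profiled by 3' droplet sequencing in 8 libraries, 2 per group. The labels name a version 2 kit and the study's methods a later one, and the difference was not resolved. The deposited matrices hold UMI counts per gene and cell barcode that the authors made with Cell Ranger 5.0.0 (file headers) against mm10 (submitters' processing notes), with no scaling and no pooling. Counts cover each library's called barcodes, 46483469 to 102427359 UMIs per library.

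Following the limits of the study, cells had 1000 to 5500 genes, up to 30000 UMIs and no more than 7% of mitochondrial UMIs, and no doublet caller was run. UMIs were summed per library over epithelial and over myeloid cells, with at least 20 cells required. The sums were tested over all genes by the quasi-likelihood F test of edgeR 4.0.16 (R 4.3.3), after filterByExpr and TMM, with Benjamini-Hochberg adjusted p under 0.05 as a call and SE as the absolute log2 fold change over the square root of F. An additive model gave the transgene effects, a mean per group the contrasts and the interaction, and a library block the comparisons within libraries. DESeq2 1.42.0 was an alternative. The study's methods give 2 mice per genotype, and p-values measure the spread between these libraries. The script was tested on simulated data. Tables and figures used Python 3.11.15, numpy 2.4.6, scipy 1.17.1, pandas 2.3.3 and matplotlib 3.10.9.

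The members and the gene lists were chosen with earlier results of these data known. All members are named. From the lists of oxygen sensing, other targets, glycolysis and receptors, the 3 called genes with the largest absolute fold change are named per comparison, among those whose mean in 1 group reached 20 CPM and no overlap of libraries, and others are marked where named. Of the 5 genes most like Egln3 by Pearson r, with a mean of at least 20 CPM over libraries, 1 is not reported here. Alternatives were the scaling, the tool, the count filter, the cell limits, the cell gates and each library left out. Gene positions came from GENCODE vM21 (GRCm38). Ndrg1 had no promoter entry.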

Additional observations from a re-analysis of the deposited data

Results flagged for a closer look

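The YAP transgene effect on Car9 differed between epithelial and myeloid cells by 3.49 on the log2 scale (SE 0.79, edgeR adjusted p = 0.0371), a difference between cell classes in a test added after the values were seen. Car9 was higher in Y2, EY1 and EY2 than in every library without the transgene in epithelial cells, and lower in myeloid cells with the transgene on average, with overlap in E1. The call was kept in 10 of 18 alternatives, over an adjusted p of 5.37e-05 to 0.120, and both classes held few UMIs of the gene, from 1 to 141 per library in epithelial and 4 to 50 in myeloid cells.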

How the results depend on the processing

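No paired analysis was possible because the libraries carry no numbers shared across groups and were numbered in accession order. With the DESeq2 Wald test, without the low-count filter and without the upper limits on genes and UMIs, the members called were 8, 8 and 8 for the YAP transgene effect in epithelial cells (5 as reported), and 3, 3 and 7 for Y against N (1 as reported). They were 6, 6 and 4 for the YAP transgene effect in myeloid cells (1 as reported). Without upper limits they were 8 for EY against N in epithelial and 8 in myeloid cells (5 and 5 as reported). The myeloid YAP count was 2 with DESeq2 size factors, 5 with 1 Lyz2 and 1 Ptprc UMI, 5 without the S100a8 and S100a9 gate and 0 with 20 Lyz2 UMIs, and for EY against N the 2 Lyz2 limits gave 8 and 2 in place of 5. For the difference between classes (1 as reported), the count was 3 without the filter, 2 without upper limits, 0 without leukocyte transcripts and 0 with 20 Lyz2 UMIs. Leaving out 1 library gave 3 to 7, 0 to 2 and 0 to 5 in epithelial cells (YAP, Y, EY), 0 to 7 and 0 to 6 in myeloid cells (YAP, EY), and 0 to 2 for the difference. The cause of these changes was not tested. The fold change of Hif1a for YAP in epithelial cells turned to −0.0021 without the filter and ran from −0.17 (without EY2) to 0.14 (without Y1) with 1 library left out. The Egln3 share was 17.6 percentage points higher with YAP thinned to 2000 UMIs and 40.1 without thinning.

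Over all genes, the calls for YAP in epithelial cells were 1217, against 2762 with DESeq2, 6131 without upper limits and 324 to 1707 with 1 library left out. For E6-E7 they were 55, against 293, 36 and 1 to 36, for Y against N 62, against 457, 1504 and 0 to 98, and for EY against N 2550, against 6042 without upper limits and 5 to 4061. In myeloid cells they were 94 for YAP, against 767 with DESeq2 and 0 to 732, and 1014 for EY against N, against 230 with 20 Lyz2 UMIs, 289 without the S100a8 and S100a9 gate and 3 to 1129. Of 947 alternative values for members, 781 kept their direction and side of the threshold. Keratins at 5% of UMIs could not be run, with too few cells. Car9 at 1 UMI and 170 epithelial cells of EY1 set the limit of depth.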

Other observations

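Among libraries without the YAP transgene, some members differed between libraries of the same genotype. In epithelial cells, N1 and E1 were above N2 and E2 for Adm (33.9 and 33.5 against 9.53 and 9.09 CPM), Ankrd37 (9.28 and 8.43 against 4.53 and 4.06) and Vegfa (6.66 and 9.05 against 3.93 and 5.18). Epithelial cells were 81.3 and 81.7% of the kept cells of N1 and E1, and 22.4 and 36.4% of those of N2 and E2. Their median depths were 13656 and 12575 UMIs in the first pair and 22942 and 23570 in the second. What sets these pairs of libraries apart was not tested.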
